A study of Bos taurus with 6 samples.

Results

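Selenoproteins carry selenocysteine, an amino acid that is inserted at a UGA codon normally read as a stop. The genes described here are SELENOW (selenoprotein W) and its family members SELENOF, SELENOT, SELENOK, SELENOS, SELENOH, SELENOP, SELENOI and MSRB1, taken by symbol from the deposited count table. Of 10 listed symbols, 9 were found among the 12826 genes of the table, and SELENOM was not analysed here. All 9 passed the filter on low counts, with 148 to 3165 counts per library. The list was chosen by the measured difference of SELENOW between treated and control libraries and then filled with its family, so values of that comparison are given below as a description, without a test for these 9 genes.

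The libraries are polyadenylated RNA of pooled Bos taurus blastocysts, produced in vitro from slaughterhouse material and collected at day 7. Embryos of 3 libraries were exposed to the ketone body beta-hydroxybutyrate (BHB), and embryos of 3 control libraries were not; no genotype, strain or other agent is named for either group. The sources used here give neither the dose and duration of BHB nor the size of a pool. Whether pools came from separate rounds of embryo production is not stated either, so p-values reflect only the spread of these 6 libraries, which may be technical.

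Library totals ran from 6440732 to 8176648 counts. Levels are CPM, counts scaled to a fixed library total, with edgeR's TMM factors. The refit described under processing joins libraries of the same number across groups into 3 pairs. These pairs are in no label, and what the libraries of a pair share is not stated. Pair 1 stood apart: of the 524 genes that edgeR's quasi-likelihood test called between pairs, pair 1 was the most distant in 183 as the highest and in 149 as the lowest. Of 12 blastocyst lineage markers 10 were measured, including the trophectoderm keratins KRT8 and KRT18 and the pluripotency factors POU5F1 and NANOG; SOX2 and SOX17 were not analysed here. Of 10 cumulus and granulosa cell markers 3 were in the table (FSHR, CYP19A1 and STAR), and their summed level was 29.6 to 37.5 CPM in controls and 28.2 to 35.3 CPM with BHB. Of 10 leukocyte and blood markers 2 were in the table, CD68 and ALAS2, with sums of 4.51 to 8.42 and 7.06 to 9.43 CPM, and of 8 oocyte markers ZP3 and OOEP, with sums of 11.8 to 15.6 and 10.5 to 18.8 CPM. The part of these cells in the results below was not tested. In pooled embryos, fewer cells of a type and less RNA per cell cannot be told apart.

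Translation of these proteins needs selenium, a dedicated transfer RNA and a structure in the messenger RNA that is bound by SECISBP2. Several members are small oxidoreductases with selenocysteine in a thioredoxin-like fold. Others sit in the endoplasmic reticulum membrane, transport selenium in plasma, repair oxidised methionine or make phospholipids. Transcripts of several selenoproteins, SELENOW, SELENOH and GPX1 among them, are known to fall when selenium is scarce.

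SELENOW, a small cytosolic redox protein, was higher in each BHB library than in any control. It was at 21.2, 19.6 and 28.3 CPM in control libraries 1 to 3, from 159, 148 and 241 counts. In BHB libraries 1 to 3 it was at 36.9, 55.8 and 58.8 CPM, from 274, 403 and 403 counts. The lowest BHB library, that of pair 1, thus lay above the highest control. The group means were 23.1 ± 4.61 and 50.5 ± 11.9 CPM (SD, n = 3 each), a log2 fold change of BHB over control of 1.13 (SE 0.23). Within pairs the difference was 0.79, 1.50 and 1.05 in log2 CPM, smallest in pair 1. Groups did not overlap with BHB higher in 4.06% of the 12732 tested genes, and nothing is read from SELENOW being among them, since this contrast chose it. By edgeR's quasi-likelihood test with Benjamini-Hochberg adjustment 0 of 12732 genes passed at 0.05 between BHB and control, a percentage of 0; 347 had an unadjusted p under 0.05, DESeq2's Wald test called 6 (0.0468%) and limma-voom 0.

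SELENOH, a nuclear protein with a thioredoxin-like fold, overlapped between groups. Control levels were 85.2, 56.7 and 103 CPM, and BHB levels were 116, 89.2 and 101 CPM. The low value was control 2, and the libraries of pair 3 were nearly equal. The log2 fold change was 0.32 (SE 0.21), and the differences within pairs were 0.44, 0.65 and -0.03. GPX1, the cytosolic glutathione peroxidase, had a log2 fold change of 0.18 (SE 0.18). The groups of GPX1 also overlapped.

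SELENOP, the secreted carrier of selenium, had the opposite direction to SELENOW. Controls had 151, 140 and 111 CPM of it and BHB libraries 108, 96.5 and 85.6 CPM. Each BHB library lay below every control, by a narrow margin between control 3 and BHB 1. The means were 134 ± 20.7 and 96.6 ± 10.9 CPM (SD, n = 3 each; log2 fold change -0.47, SE 0.16). The differences within pairs were -0.49, -0.54 and -0.37. Groups did not overlap with BHB lower in 3.78% of tested genes. Over the 6 libraries log2 CPM of SELENOP and SELENOW had a Pearson r of -0.95; the points share the split by treatment, so this is a description. The span of SELENOP overlaps that of CCDC152 in the ARS-UCD2.0 gene table, and the strand setting of the counting is not given, so reads of these genes may not be told apart. The log2 fold change of CCDC152 was 0.16 (SE 0.35).

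**Figure D1:**
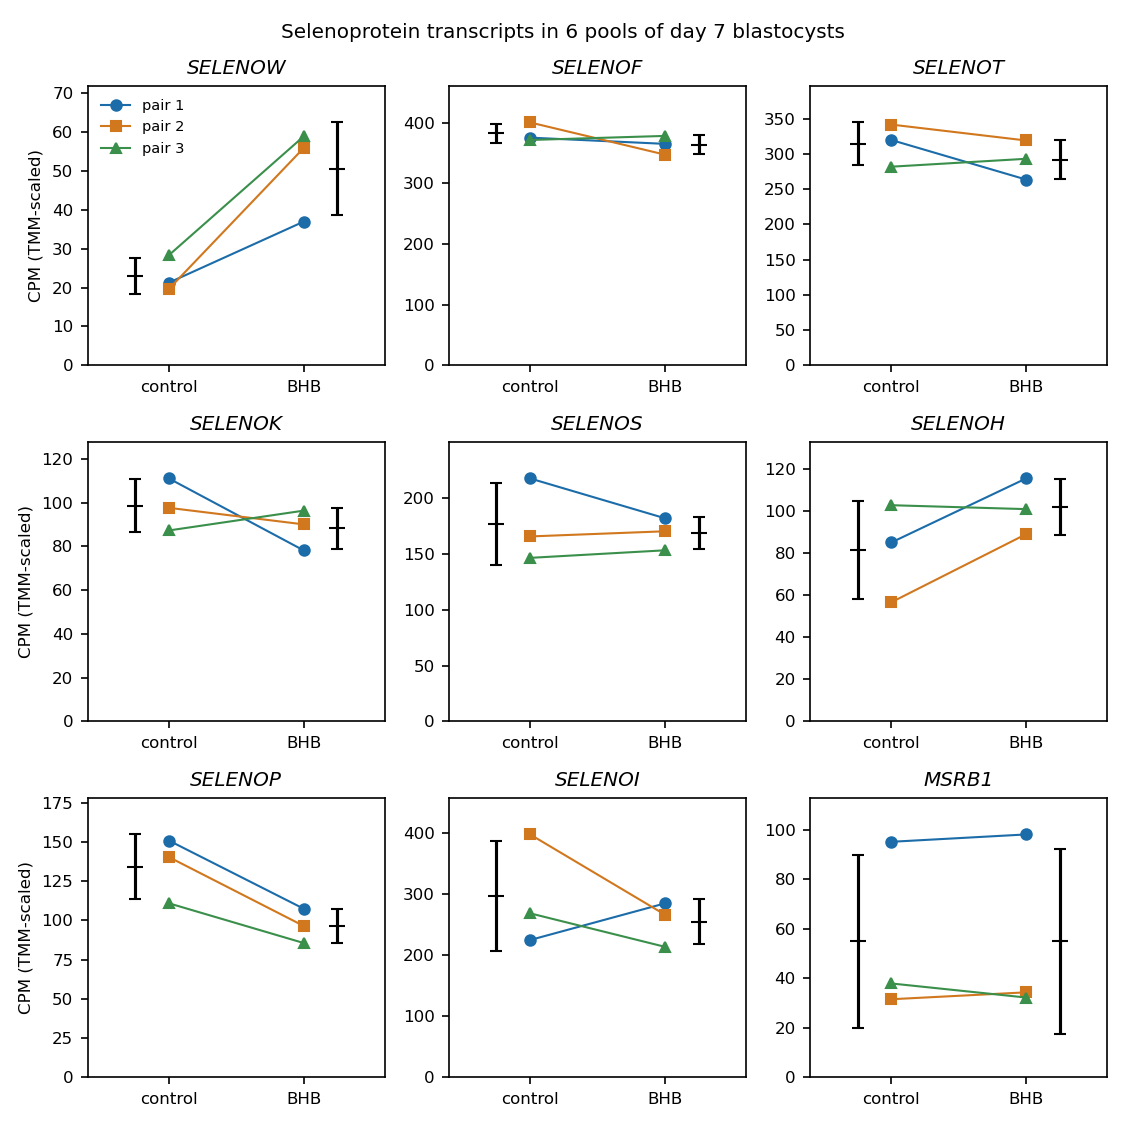
Level of each of the 9 selenoprotein transcripts (CPM on TMM-scaled library sizes, vertical axes from 0) in control and BHB libraries. Lines join the libraries of a pair, and black marks are group means with SD (n = 3). SELENOW is higher and SELENOP lower in each BHB library than in any control, and MSRB1 is high in both libraries of pair 1.

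Members of the endoplasmic reticulum differed little. SELENOF, which binds the glucosyltransferases that test the folding of glycoproteins, stood at 375, 401 and 372 CPM in control libraries and 365, 347 and 378 CPM under BHB (log2 fold change -0.07, SE 0.12). SELENOT, a thioredoxin-like protein of the membrane, was at 320, 342 and 282 CPM and at 264, 319 and 293 CPM (-0.11, SE 0.13). Both genes had overlapping groups and turned sign between pairs.

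SELENOK and SELENOS take part in the removal of misfolded proteins from this compartment, and SELENOK also in protein palmitoylation with ZDHHC6. SELENOK had 111, 97.6 and 87.2 CPM in control libraries against 78.1, 90.0 and 96.3 CPM in those with BHB (log2 fold change -0.16, SE 0.15). Its highest and lowest values were the 2 libraries of pair 1, with differences within pairs of -0.51, -0.12 and 0.14. The control values of SELENOS were 217, 165 and 146 CPM and its BHB values 182, 170 and 153 CPM (-0.07, SE 0.17; 0.005 when scaled by library size alone). In both groups pair 1 was the highest and pair 3 the lowest for SELENOS.

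SELENOI, the ethanolamine phosphotransferase that makes phosphatidylethanolamine, measured 225, 397 and 268 CPM in control libraries and 284, 266 and 213 CPM under BHB. Control 2 was well above the rest, and without it the log2 fold change of -0.22 (SE 0.21) became 0.05. The direction of SELENOI therefore rests on that library.

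MSRB1 reduces oxidised methionine in proteins and is known for reversing the oxidation of actin. It had no difference between groups in the mean, 54.9 ± 35.0 CPM in controls and 54.9 ± 37.4 CPM with BHB (SD, n = 3 each), but it varied more between pairs than any other member. Controls 1 to 3 had 95.1, 31.6 and 37.9 CPM, and BHB libraries 1 to 3 had 98.1, 34.3 and 32.2 CPM. These values rest on 712, 238 and 323 and on 728, 248 and 221 counts. The 2 libraries of pair 1 were nearly equal to each other and lay far above the other 4, which ranged from 31.6 to 37.9 CPM.

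The comparison between pairs was not used to choose the genes and was therefore tested, in a model that also holds treatment. The quasi-likelihood test of pair in edgeR called 4.12% of tested genes (524 of 12732). Of the 9 selenoproteins it called 1, MSRB1 (adjusted p = 0.0019), with the 14th smallest p of all tested genes. Pair 1 exceeded the mean of pairs 2 and 3 by 1.51 on the log2 scale (SE 0.14) for MSRB1, in both control and BHB libraries. Without pair 1 the edgeR test between pairs 2 and 3 gave MSRB1 an adjusted p of 0.871 and called 63 genes and 0 of the 9, so its call rests on pair 1. Leaving out any single library kept the call of MSRB1 (edgeR adjusted p = 4.42e-06 to 0.0142). DESeq2's likelihood ratio test, which called 5.05% of genes, gave it an adjusted p of 3.5e-12, and limma-voom, which called 3.87%, one of 0.0029; each called MSRB1 alone of the 9.

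The other 8 selenoproteins had edgeR adjusted p between pairs of 0.187 to 0.993. The smallest belonged to SELENOH, which was called without BHB 3, and SELENOI was called without BHB 1. SELENOW had an adjusted p of 0.292, with pair 1 lower than the mean of pairs 2 and 3 by a log2 value of -0.41 (SE 0.18). Over the 6 libraries, pair took 98.8% of the variance of log2 CPM in MSRB1 and 82.4% in SELENOS but 12.8% in SELENOW. Treatment took 0.024%, 1.9% and 81.6% of it. The medians over all tested genes were 53.5% for pair, with 2 degrees of freedom, and 10.8% for treatment, with 1; these shares were not tested.

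**Figure D2:**
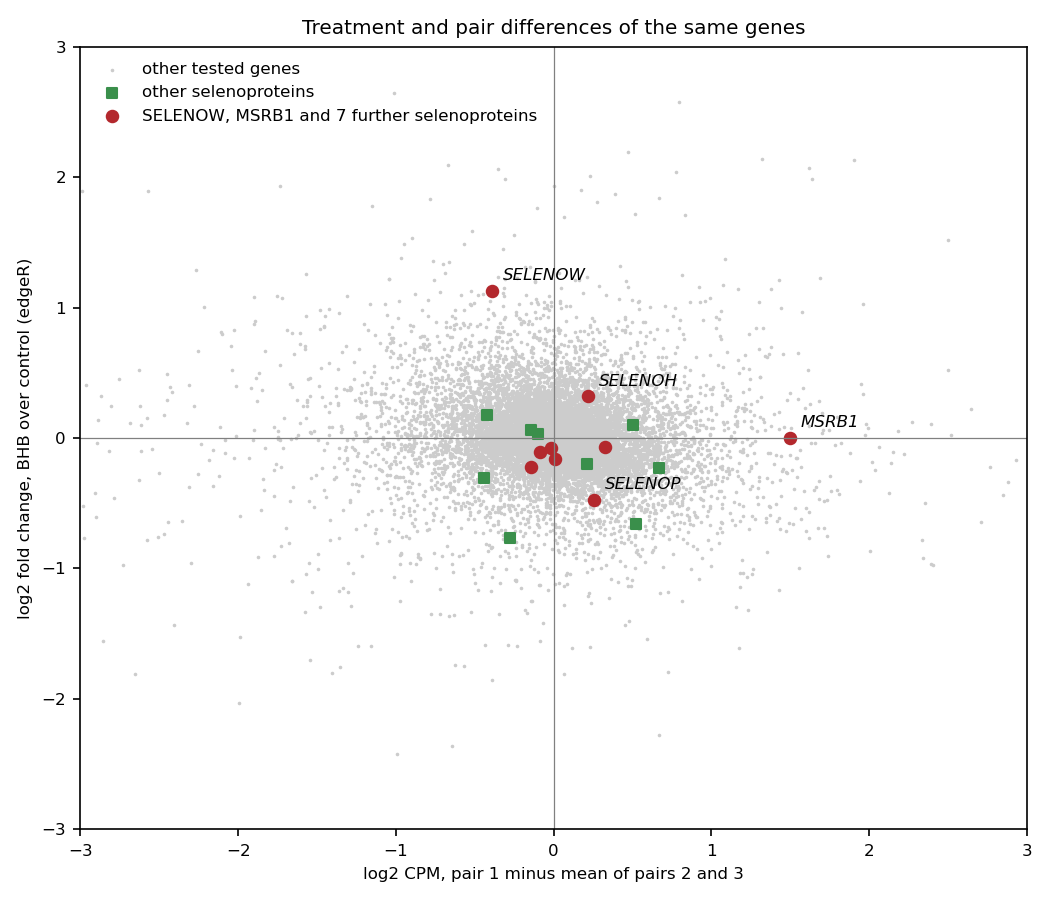
Each point is a tested gene, placed by the difference in log2 CPM between pair 1 and the mean of pairs 2 and 3 (horizontal) and by the log2 fold change of BHB over control (vertical); 27 genes lie outside the axes. Among the selenoproteins, SELENOW is highest on the vertical axis (1.13), the contrast that chose it. MSRB1 is the selenoprotein furthest to the right and lies near 0 for treatment. Some other tested genes, such as CLIC6 (1.71), lie further right than MSRB1.

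Other methionine sulfoxide reductases and thioredoxins were taken from a list of methionine sulfoxide reduction genes, of which 5 of 5 were tested. Like the other lists, it was chosen with earlier results of these data known. Between pairs edgeR called 2 of the 5 (4.12% of all tested genes were called), and both were higher in pair 1, as MSRB1 was. TXN, the cytosolic thioredoxin that supplies such reductases with electrons, was at 883 and 700 CPM in the control and BHB library of pair 1 and at 317 to 439 CPM in the other 4 (pair 1 over the rest 1.13, SE 0.14, log2; adjusted p = 0.0071). MSRB3, a reductase without selenocysteine in mammals, was at 54.9 and 42.0 CPM in pair 1 and at 17.4 to 25.1 CPM elsewhere (1.27, SE 0.16; adjusted p = 0.0071). The mitochondrial thioredoxin TXN2 ranged only from 104 to 119 CPM over all libraries, and TXN2, MSRA and MSRB2 were not called between pairs. The groups of TXN2 did not overlap, with 117 to 119 CPM in controls and 104 to 111 CPM under BHB (BHB lower in 3.78% of all tested genes). Between BHB and control 0 of the 5 passed. All 5 log2 fold changes were negative (median -0.11), as were 6478 of 12732 over all tested genes (median -0.005). TXN2 (-0.14, SE 0.12) and MSRB3 (-0.37, SE 0.44) had the smallest p.

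Some lineage markers also differed between pairs. Of 10 measured, edgeR called 3 (4.12% of all tested genes were called): KRT8 (pair 1 over the rest 0.47, SE 0.08, log2; adjusted p = 0.0071), KRT18 (0.42, SE 0.09; adjusted p = 0.0169) and PDGFRA, a receptor of the primitive endoderm (-0.96, SE 0.16; adjusted p = 0.0225). Each adjusted p comes from the test of all pairs together, not of pair 1 alone. KRT8 and KRT18 differed most in pair 3, by -0.67 and -0.57 in log2 CPM from the mean of pairs 1 and 2. PDGFRA and MSRB1 differed most in pair 1. As means of 2 libraries, pairs 1 to 3 had 11044, 9773 and 6537 CPM of KRT8, 49.2, 102 and 87.7 CPM of PDGFRA and 96.6, 32.9 and 35.1 CPM of MSRB1. The part of lineage makeup in the difference of MSRB1 was not tested.

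**Figure D3:**
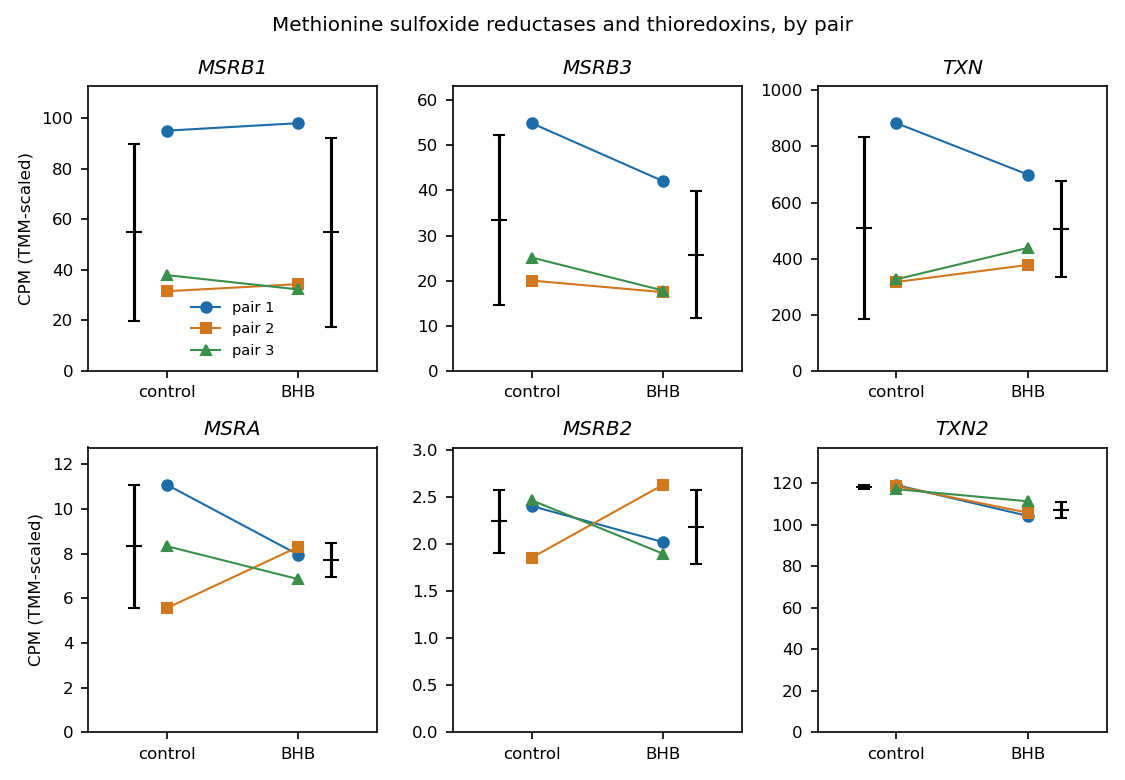
Level (CPM on TMM-scaled library sizes, axes from 0) of MSRB1 and of the 5 other methionine sulfoxide reductase and thioredoxin genes in control and BHB libraries. Lines join the libraries of a pair, and black marks are group means with SD (n = 3). MSRB1, MSRB3 and TXN are high in both libraries of pair 1, and MSRA, MSRB2 and TXN2 are not.

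The tested genes nearest to MSRB1 in the ARS-UCD2.0 gene table, examined after its values were seen, did not have its pattern. None is adjacent to MSRB1: 1 to 7 genes of that table lie between. The 3 nearest tested genes on each side were NUBP2, HAGH and FAHD1, and NDUFB10, RPS2 and TBL3. In these 6 genes pair 1 differed from the mean of pairs 2 and 3 by -0.20 to 0.31 in log2 CPM. In edgeR's test between pairs 0 of 6 passed, where 4.12% of all tested genes did. The 6 nearest tested genes of SELENOW, with 2 to 19 genes between, had log2 fold changes of BHB over control from -0.66 (LOC112442347) to 0.19 (EHD2). Of these, 0 of 6 passed edgeR's test of BHB against control (0% of all tested genes).

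Of 15 other selenoprotein genes listed, 9 were in the table. Between BHB and control edgeR called 0 of the 9 (0% of all genes, adjusted p = 0.999 for each). Between pairs edgeR also called 0 of the 9 (4.12% of all tested genes, adjusted p = 0.133 to 0.898). DESeq2's Wald test and limma-voom also called 0 of them between BHB and control, and 0 had an unadjusted p under 0.05 in edgeR. Among peroxidases, GPX4, which protects membrane lipids, averaged 181 ± 25.4 CPM in control libraries and 158 ± 20.6 CPM under BHB (SD, n = 3 each; log2 fold change -0.20, SE 0.16). The log2 fold change was 0.10 (SE 0.33) for GPX2 and -0.77 (SE 0.46) for GPX3, a secreted form with 7 to 23 counts per library.

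The thioredoxin reductases TXNRD1 and TXNRD2 were at log2 fold changes of 0.03 (SE 0.14) and -0.23 (SE 0.50). SEPHS2, which makes the selenium donor and is itself a selenoprotein, was at 356 ± 47.3 and 372 ± 58.5 CPM (SD, n = 3 each). SELENOO, a mitochondrial protein that attaches AMP to others, had a log2 fold change of -0.66 (SE 0.40), with 24 to 32 counts in pair 1 and control libraries and 12 and 14 in BHB 2 and 3. Of the other 9 selenoproteins, GPX3 and SELENOO had groups that did not overlap, with BHB lower (3.78% of all tested genes). SELENON, an endoplasmic reticulum protein linked to muscle disease, was at -0.31 (SE 0.54) from 4 to 14 counts per library.

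No test was made of the selenoproteins as a set. Of the 9, 3 had positive and 6 negative log2 fold changes (median -0.07), and of the other 9, 4 were positive and 5 negative (median -0.20), where all tested genes had a median of -0.005. In 3 of 3 pairs SELENOW was higher and SELENOP lower, which is 22.2% of the 9 with 1 direction against 30.3% of all tested genes. Nothing is read from this share, since the contrast chose SELENOW. Of the other 9, GPX1 was higher and GPX3, GPX4, TXNRD2 and SELENOO were lower in 3 of 3 pairs, which is 55.6% with 1 direction. The summed level of the 9 was 1435 to 1651 CPM in controls and 1412 to 1531 CPM with BHB, and SELENOW is a small part of it.

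**Figure D4:**
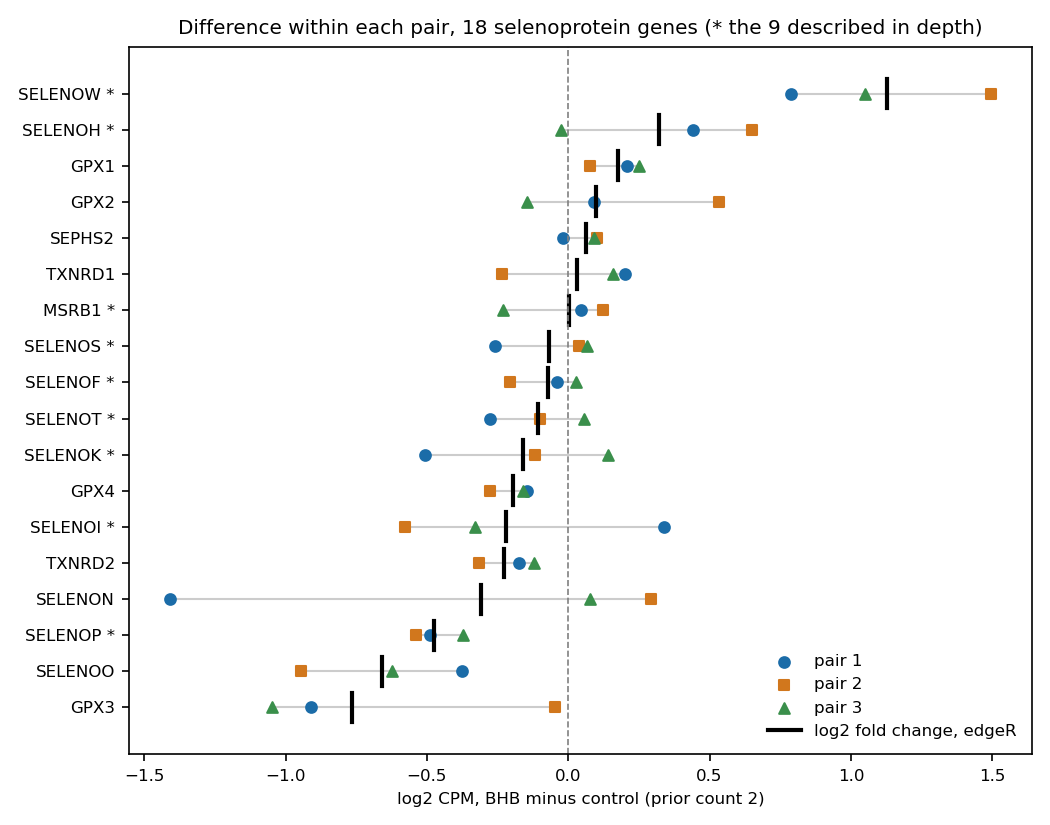
Difference of log2 CPM between the BHB and the control library of each pair (horizontal axis, 1 symbol per pair) for 18 selenoprotein genes, ordered by edgeR's log2 fold change (black bars). SELENOW is the furthest to the right, with 0.79 to 1.50, and most other genes lie on both sides of 0 or close to it.

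The machinery that makes and inserts selenocysteine was represented by 12 of 13 listed genes. Of the 12, edgeR called 0 between BHB and control (0% of all tested genes) and 0 between pairs (4.12% of all tested genes). SECISBP2, the factor that binds selenoprotein messages, averaged 89.7 ± 1.02 CPM in control libraries and 90.2 ± 7.87 CPM under BHB (SD, n = 3 each). Its paralog SECISBP2L and the seryl-tRNA synthetase SARS had the smallest p, with log2 fold changes of -0.32 (SE 0.19) and -0.25 (SE 0.18), and did not pass. The median of the list was -0.07.

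Receptors and adaptors for the uptake of SELENOP were all measured (5 of 5). LRP2, the megalin receptor, ranged from 1379 to 2049 CPM in control libraries and from 892 to 1476 CPM under BHB (log2 fold change -0.61, SE 0.21; edgeR adjusted p = 0.999). With the replicate block LRP2 was called by DESeq2's Wald test (adjusted p = 0.00012; 0.257% of genes were called) and not by edgeR (adjusted p = 0.0915). LRP1, a related receptor with 31 to 107 counts per library, did not pass either (-0.90, SE 0.33). LRP8, the receptor in brain and testis, was at 0.39 (SE 0.36). Between pairs edgeR called 2 of the 5 (4.12% of all tested genes), LRP2 (adjusted p = 0.0296) and the adaptor DAB2 (adjusted p = 0.0402), both lowest in pair 3.

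Of 14 endoplasmic reticulum partners of SELENOF, SELENOK and SELENOS, 13 had negative log2 fold changes (median -0.14) and 0 passed between BHB and control. Over all tested genes 6478 of 12732 log2 fold changes were negative (median -0.005), and the list was not tested as a set. HERPUD1 (-0.39, SE 0.16) and SEL1L (-0.28, SE 0.12), both of the degradation complex, had the smallest p. SEL1L had 148, 154 and 157 CPM in control libraries against 126, 136 and 118 CPM under BHB. Groups did not overlap, with BHB lower, in 3 of the 14 (SEL1L, HERPUD1 and SYVN1; 3.78% of all tested genes). UGGT2, a folding sensor, was called between pairs by edgeR (adjusted p = 0.0409), as 1 of the 14 (4.12% of all tested genes). It was lowest in pair 1, with 10 and 3 counts there and 19 to 79 in the others. Of 7 genes of ethanolamine phospholipid synthesis, in which SELENOI acts, 6 were negative (median -0.19) and 0 passed; PCYT2 (-0.24, SE 0.17) and PISD (-0.33, SE 0.31) had the smallest p.

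The authors' deposited table gives MSRB1 an adjusted p of 1.45e-11, the 24th smallest p of 12826 genes, beside a log2 fold change of control over BHB of 0.03 (standard error 0.18). In the authors' deposited table SELENOW has an adjusted p of 8.78e-05 and SELENOP one of 0.0231, and 3 of the 18 selenoproteins are under 0.05, where 5.04% of all genes are. As described under processing, a test of pair and treatment together gives these p-values. Those of MSRB1, SELENOW and SELENOP are therefore not tests of BHB against control alone. Nothing is read from that of SELENOW, or from the count of 3 of 18 that includes it, since the comparison of BHB with control chose it.

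The genes whose log2 CPM was most like that of SELENOW over the 6 libraries were HMGN5 (Pearson r = 0.98), ATG16L2 (0.98), SF3A2 (0.98), TBCEL (0.98) and PPP1R14A (0.98). All 5 were higher on average with BHB, from SF3A2 (log2 fold change 0.39, SE 0.18) to TBCEL (0.72, SE 0.26), so each difference was smaller than that of SELENOW. The points share the libraries and the split by treatment, and these correlations are a description.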

How the data were processed

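The authors deposited whole-number counts per gene, not normalized, for 6 libraries, and a table of their own comparison with a mean of normalized counts (a linear signal), log2 fold change and its error, a test statistic (a score), p-value and adjusted p-value. STAR, featureCounts and DESeq2 are named, per the submitters' processing notes; the versions, build, annotation and strand setting are not stated. Every gene of the deposited counts reached 1 CPM in at least 3 libraries.

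Counts were normalized with TMM, and edgeR's filterByExpr left 12732 of 12826 genes. The main test was the quasi-likelihood F test of edgeR, adjusted by Benjamini-Hochberg over all tested genes at 0.05 (R 4.3.3, edgeR 4.0.16), for treatment without a block and for pair with treatment in the model. The SE is the log2 fold change over the square root of F. DESeq2 1.42.0 and limma 3.58.1 (voom) were alternatives, with other filters, library size scaling, the replicate block and libraries or pairs left out. log2 CPM used a prior count of 2. Fits were tested on simulated data with 200 changed genes. For BHB against control edgeR recovered 21.5% of 2-fold and 95.5% of 4-fold changes, and between pairs 63.5% and 92.5%. A count of 0 called between BHB and control can therefore miss most 2-fold differences.

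The labels pair no libraries; numbers 1 to 3 follow accession order. DESeq2's likelihood ratio test of pair and treatment against neither gave the authors' deposited p-value within 1e-06 in 99.98% of genes with equal numbers paired, and in 0 to 0.398% with the other 5 pairings. Deviations from group means correlated at 0.47, 0.32 and 0.33 over genes within these pairs.

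Genes and lists were chosen with earlier results of these data known. Named are all 9 selenoproteins, every other selenoprotein measured, genes of each list past the threshold or else the 2 with the smallest p, and the 5 genes most correlated with SELENOW (mean log2 CPM at least 1, no LOC name). NANOG and TFAP2C had the smallest p of the lineage list (log2 fold changes -0.84, SE 0.21, and 0.37, SE 0.18). FSHR and CYP19A1 had those of the cumulus list (-0.28, SE 0.23, and 0.31, SE 0.27), CD68 and ALAS2 those of the blood list (0.45, SE 0.41, and 0.23, SE 0.36), and ZP3 and OOEP those of the oocyte list (0.32, SE 0.66, and 0.02, SE 0.30); none of these 8 passed edgeR's test. DESeq2's Wald test with the replicate block called NANOG (adjusted p = 0.011). Genes named for differences between pairs were chosen after their values were seen. SARS1 was matched by its older symbol SARS. All 9 selenoproteins have an entry in the ARS-UCD2.0 gene table, used only for names, gene order and the overlap of gene spans.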

Additional observations from a re-analysis of the deposited data

How the results depend on the processing

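Between BHB and control, edgeR called 0 genes. DESeq2's Wald test called 6 and, with the replicate block, 33. SELENOW was in both sets, and nothing is read from that, since this contrast chose it. The replicate block left edgeR's count at 0. Leaving out 1 library gave 0 to 1 genes. The count of other selenoproteins was 0 under every alternative run. Between pairs, 524 genes were called; leaving out 1 library gave 300 (without control 1) to 1076 (without BHB 3), and 1 to 2 of the 9 selenoproteins in place of 1. Without pair 1, 63 genes and 0 selenoproteins were called; this alternative, and a filter of at least 1 CPM in all 6 libraries (11575 genes), were chosen after seeing the data. The planned filter of 1 CPM in at least 3 libraries removed 0 genes, so it equals the fit without a filter. The log2 fold change of SELENOW stayed between 0.93 and 1.31 and that of SELENOP between -0.59 and -0.38 over 16 alternatives. The sign turned in 9 of 16 for MSRB1, 3 for SELENOS, 2 for SELENOI and 1 for SELENOK; the cause was not tested. Selenoproteins with 4 to 32 counts per library (SELENON, GPX3, TXNRD2, SELENOO) had standard errors of 0.40 to 0.54. MSRB1, with 221 to 728 counts, had one of 0.50 in the same fit without a block, so depth is not the only limit. With the replicate block edgeR gave MSRB1 a standard error of 0.14.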

Other observations

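The genes whose log2 CPM was most like that of MSRB1 over the 6 libraries, a list taken after its values were seen, were DOCK6 (Pearson r = 1.00), PLA2R1 (0.99), SLC15A1 (0.99), NOM1 (0.99) and GTF2IRD1 (0.99). PLA2R1, a receptor for secreted phospholipase, and SLC15A1, a peptide transporter, differed between pair 1 and the mean of pairs 2 and 3 by 1.48 and 1.00 in log2 CPM. DOCK6, an activator of small GTPases, differed by 0.93. NOM1 and GTF2IRD1 differed by 0.28 and 0.25, so a high correlation over these libraries goes with differences of very unequal size.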
